A study of Mus musculus with 6 samples.

Results

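Col10a1 encodes the chain of type X collagen, the matrix collagen that marks chondrocytes as they enlarge into hypertrophic cells in the growth plate. The Jun peaks around this gene were taken from a deposited list of Jun ChIP-seq peaks on the mouse genome build mm9. A peak was included where its midpoint lay in a window of 450 kb on chromosome 10, from 33900001 to 34350000. This gave 30 of the 99162 peaks of the list, and 30 of the 5467 peaks on chromosome 10. The window surrounds Col10a1, which occupies about 34110000 to 34117000 on mm9. Those gene ends are rounded values, so all distances to the gene below are approximate.

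Jun binding was mapped in chondrocytes freshly digested from rib cartilage of untreated wild-type ICR mice at postnatal day 1, with 1 Jun library and, after it, 1 library of input DNA from the same kind of cells. The list was assigned to the Jun library by its name, and the input values were not used here. The labels name no sorting step for these cells, so the share of hypertrophic cells among them is not known, and with no expression values in the list the cell type could not be checked against its markers. The other 4 libraries of the study are RNA-seq of sorted cells from Col10a1mCherry mice and were not analysed here. The list gives positions only, with no height, score or p-value. The read depth behind it is unknown and there was no replicate, so every value below describes 1 list. A place without a peak cannot be taken as unbound.

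Jun is a subunit of AP-1, a dimer of Jun and Fos family proteins that binds short DNA sites in promoters and enhancers. Sox9 drives cartilage formation, and the study asked how AP-1 acts with Sox9 at DNA targets as chondrocytes become hypertrophic. Transcription of Col10a1 is known to depend on Runx2, a transcription factor of hypertrophic cells and osteoblasts, and on enhancer elements upstream of the gene. AP-1 sites have been described in such elements in human and mouse.

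In the RefSeq gene table, which belongs to the later build GRCm38.p6, Col10a1 lies inside Nt5dc1 and on the opposite strand. Tspyl4, Tspyl1 and Dse follow on the side of lower coordinates, and Frk, a tyrosine kinase gene, is the next gene on the side of higher coordinates. Col10a1 is on the plus strand there. Lower coordinates are therefore called upstream of the gene here, with the same orientation taken for mm9. Which peaks lie in which of these neighbours, and in exons or introns, was not determined, because mm9 gene positions were not used here.

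The promoter is shown because it lay, by the rounded gene ends alone, in a stretch without any listed Jun peak. It is given as the 250 bases before the transcription start in RefSeq, on the plus strand at chr10:34389731-34389980 of GRCm38.p6, a build whose positions cannot be set beside the mm9 peaks. Capitals mark the TATAAA of the TATA box, the element that positions transcription initiation.
Col10a1: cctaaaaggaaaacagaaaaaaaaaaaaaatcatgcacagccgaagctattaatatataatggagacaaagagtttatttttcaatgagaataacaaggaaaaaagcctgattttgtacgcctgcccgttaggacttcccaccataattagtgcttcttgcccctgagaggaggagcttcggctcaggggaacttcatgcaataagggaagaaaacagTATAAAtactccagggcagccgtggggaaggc
On either strand, TATAAA occurred 1 time, starting 32 bases before the transcription start, and 12.4% of the 32851 promoter stretches of this length in the table held it. The AP-1 motif TGANTCA, whose reverse complement is the same pattern, was not among the letters of this stretch and was present in 6.75% of all such stretches. The Runx core TGTGGT was likewise not among its letters on either strand, against 14.0% of all stretches. The sequences of the peaks themselves are not shown, since no mm9 genome was used here.

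With the gene ends as rounded above, no Jun peak was listed within Col10a1 or at its start. The stretch from 34105433 to 34119368, 13.9 kb long, held no peak and contained the gene so placed. It began about 4.6 kb upstream of the gene. With the gene moved by 5 kb to either side, a bordering peak fell inside it, at a distance of 0 kb. The length of the stretch without a peak was not unusual among the gaps of the list, counted per pair of neighbouring peaks and not per position. The midpoints of the 2 peaks that border the gene lay 14.1 kb apart, 31.4% of all neighbouring peaks of the list lay farther apart, and so did 9 of the 29 neighbouring pairs of the window.

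The nearest upstream peak lay about 4.7 kb from the gene, from 34105220 to 34105432. It was 213 bp wide, the fourth widest of the 30 peaks and wider than or equal to 87.5% of the list. It stood at place 28581, or 28.8% of the way down the list. Whether it covers one of the enhancer elements known upstream of Col10a1 was not tested, because that needs sequence or positions on mm9. The nearest downstream peak lay about 2.4 kb beyond the gene, from 34119369 to 34119438. It was 70 bp wide, among the 3 narrowest of the window, and stood at place 78258, or 78.9% of the list. With the gene ends as rounded, the peak closest to the gene was thus the narrower and the later listed of the pair. With the gene moved by 5 kb to the left, the upstream peak became the closest instead.

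Within 50 kb of the gene, the list held 7 peaks, 5 upstream and 2 downstream. The others upstream lay about 16.6, 27.2, 33.4 and 47.0 kb away. The peak at 16.6 kb (34093420 to 34093479) measured 60 bp and stood at 66.4% of the list. The peaks at 27.2 kb (34082754 to 34082851) and 33.4 kb (34076489 to 34076614) measured 98 and 126 bp, and lay 6139 bp apart. They were at opposite ends of the list, at 92.9% and 5.97%. The peak at 47.0 kb (34062904 to 34063110) measured 207 bp and stood at 30.4%. The second downstream peak, 21.2 kb beyond the gene (34138027 to 34138311), was with 285 bp the third widest of the window, and stood at 79.6%. Of these 7 peaks, 3 were thus in the first 50% of the list and all 3 were upstream, as were 5 of the 7.

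This gene-centred stretch, 107 kb long, had 65.4 peaks per Mb (exact Poisson 95% interval 26.3 to 135), against 43.5 per Mb over chromosome 10. The interval includes the density of the chromosome. Of 22451 autosomal tiles of the same length, 24.7% held at least as many peaks, and the median tile held 2.

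**Figure D1:**
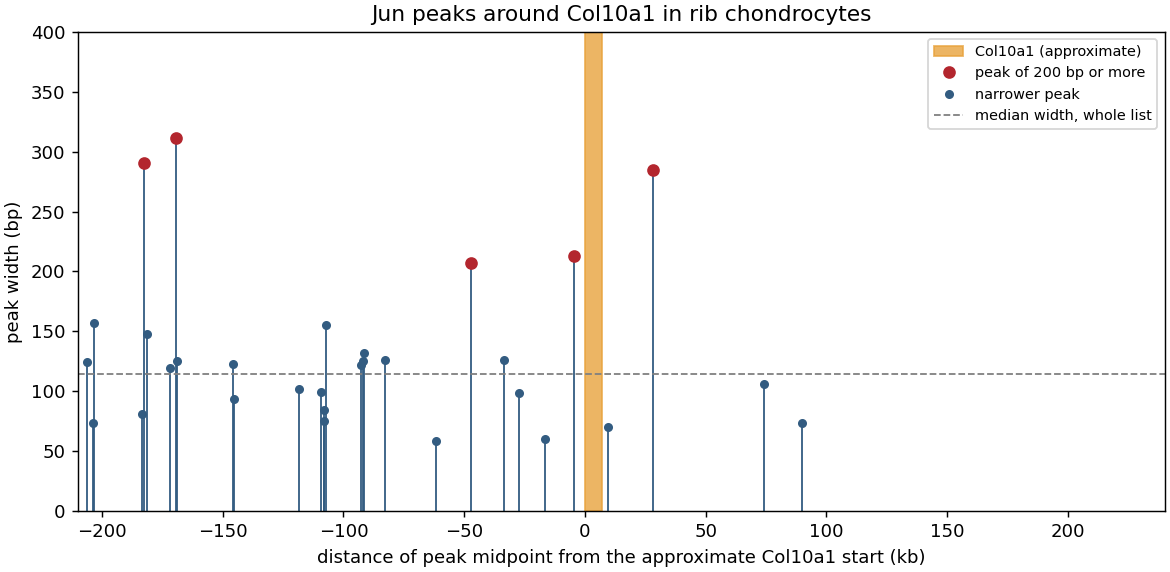
Jun peaks of the window by the distance of their midpoint from the approximate start of Col10a1 (x axis, kb, upstream negative) and their width (y axis, bp). Each stem is 1 peak, red points are the 5 peaks of 200 bp or more, the orange band is the gene and the dashed line is the median width of the whole list, 114 bp; 26 peaks lie upstream of the gene and 4 downstream.

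The peaks were unevenly divided between both sides of the gene. Of the 30 peaks, 26 lay in the 210 kb upstream and 4 in the 233 kb downstream. The density was 124 per Mb upstream (exact Poisson 95% interval 80.9 to 181) and 17.2 per Mb downstream (4.68 to 44.0). How often neighbouring stretches elsewhere in the list differ as much was not determined, so the contrast cannot be called particular to Col10a1. Relative to chromosome 10 the upstream side was 2.84-fold denser (1.86 to 4.17). Tiles of this side's length were not counted, so how common such a density is was not determined. The downstream side had 0.394 times the density of the chromosome (0.107 to 1.01), an interval that reaches 1. These intervals hold counting error alone, and since neighbouring peaks are not independent the true error is larger. With peaks within 1000 bp of each other merged, 17 regions remained upstream and 4 downstream, so the upstream side stayed the fuller one when close neighbours were counted as 1 region.

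The imbalance lay mainly far from the gene. Up to 50 kb there were 5 peaks upstream and 2 downstream, and from 50 to 100 kb again 5 upstream and 2 downstream. From 100 to 150 kb there were 7 upstream, and from 150 to 210 kb 9 upstream. No peak was listed beyond 100 kb downstream. The last downstream peaks, at 67.3 kb (34184243 to 34184348, 106 bp, 13.2% of the list) and at 82.8 kb (34199807 to 34199879, 73 bp, 96.4% of the list), were followed by a stretch of 177 kb without a peak, from 34199880 to 34376394. Of all neighbouring peaks of the list, 1.97% were farther apart. That share is counted per pair of peaks, and by position long empty stretches were common. Of 5348 autosomal tiles of 450 kb, 790 held no peak, so the stretch cannot be called particular to this locus. The next peak, 68 bp wide from 34376395 to 34376462, lay 26.4 kb outside the window. On the upstream side the window ended among peaks, with the first peak outside it at 33891726 to 33891795, 8.24 kb from the edge.

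At a chaining distance of 10 kb, most upstream peaks were grouped and the downstream peaks stood alone. When peaks with midpoints within 10 kb of each other were chained, the window held 14 groups, 10 upstream and 4 downstream. Of these, 6 contained 2 or more peaks, together 22 peaks, and all 6 were upstream. The other 8 were lone peaks, 4 upstream and 4 downstream, which is 26.7% of the 30 peaks against 19.3% of the list. Chaining at 5 kb left 8 lone peaks upstream and again all 4 downstream. This contrast still rests on the distance, since chaining at 20 kb left 0 lone peaks on either side of the gene. At 20 kb the chain ran across the gene, because the 2 peaks that border it lay 14.1 kb apart. Of the 29 neighbouring pairs, 16 (55.2%) lay within 10 kb, against 61.3% in the list, and the median distance between neighbouring midpoints was 8978 bp, against 5652 bp. Midpoints within 1 kb of each other were found for 7 of the 29 pairs, against 23.3% in the list. From the gene up to 61.7 kb upstream the window held 4 lone peaks and a single pair, at 27.2 and 33.4 kb.

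The fullest group held 6 peaks over 14.9 kb, from 33926446 to 33941327, 169 to 184 kb upstream of the gene. Groups of 6 or more peaks made up 8.89% of the groups in the list. It contained both widest peaks of the window, 312 bp (33940563 to 33940874) and 291 bp (33927384 to 33927674). It also contained the earliest listed peak of the window, 119 bp wide from 33938166 to 33938284, at place 504. That place is 0.508% of the way down the list, and 24 of the 5467 peaks of chromosome 10 were listed before it. The second earliest peak, at place 4857, was the 81 bp peak at the outer end of the same group (33926446 to 33926526), and its inner end was a 125 bp peak (33941203 to 33941327) at place 10456. The widest peak, in contrast, stood at place 92126, near the end of the list.

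A group of 5 peaks lay 107 to 118 kb upstream, spanning 11.3 kb from 33991521 to 34002793. Its outermost peak measured 102 bp and its innermost 155 bp, and 2 of its peaks, of 75 and 84 bp, overlapped by 22 bp. That was the only overlap in the window. A group of 4 peaks lay 82.9 to 92.7 kb upstream, spanning 9.93 kb from 34017193 to 34027121. Its widths were even, from 122 to 132 bp, and its places ran from 10931, for the peak nearest to the gene, to 78861. A group of 3 peaks at the far end of the window, 203 to 206 kb upstream (33903810 to 33906753), had widths of 124, 73 and 157 bp. The remaining pair, of 123 and 93 bp, lay about 145 kb upstream. Nearer to the gene than all of these groups stood the narrowest peak of the window, a lone peak of 58 bp at 61.7 kb (34048241 to 34048298) that came at 90.0% of the list.

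Peak widths in the window did not stand apart from the list. The median was 122.5 bp (exact binomial 95% interval of the median 98 to 126 bp), with a range of 58 to 312 bp, against a median of 114 bp and a range of 4 to 874 bp in the list. The median of the list lay inside that interval. Peaks of 200 bp or more numbered 5 of 30 (16.7%), against 14.0% of the list. The upstream peaks had a median of 123.5 bp and the 4 downstream peaks one of 89.5 bp, and both sides spanned nearly the same range, from 58 to 312 bp upstream and from 70 to 285 bp downstream. The sheared fragments were 100 to 600 bp long, per the labels. The lower quartile of peak width was 86.25 bp in the window and 88 bp in the list, so many peaks were narrower than the shortest fragments.

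The places of the peaks were spread over the whole list. The order of the list is not explained, so place is a description and not a strength. The median place was 47.5% (exact binomial 95% interval 28.8% to 69.2%), against 50.0% by construction for the list. With peaks within 1000 bp merged, each region taking its earliest place, the median was 30.4%. Taking the earliest place moves a median forward by construction, and no merged median of the whole list is set beside it. The first 50% of the list held 15 of the 30 peaks, the first 10% held 3 and the last 10% held 3, each of these end parts being 10.0% of the list. The first 3 places all belonged to upstream peaks, at 172, 184 and 33.4 kb, but so did 26 of the 30 peaks (86.7%). The upstream peaks had a median place of 44.1% and the downstream peaks one of 79.2%, which rests on 4 peaks. The ranges overlapped, from 504 to 92126 upstream and from 13095 to 95580 downstream.

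**Figure D2:**
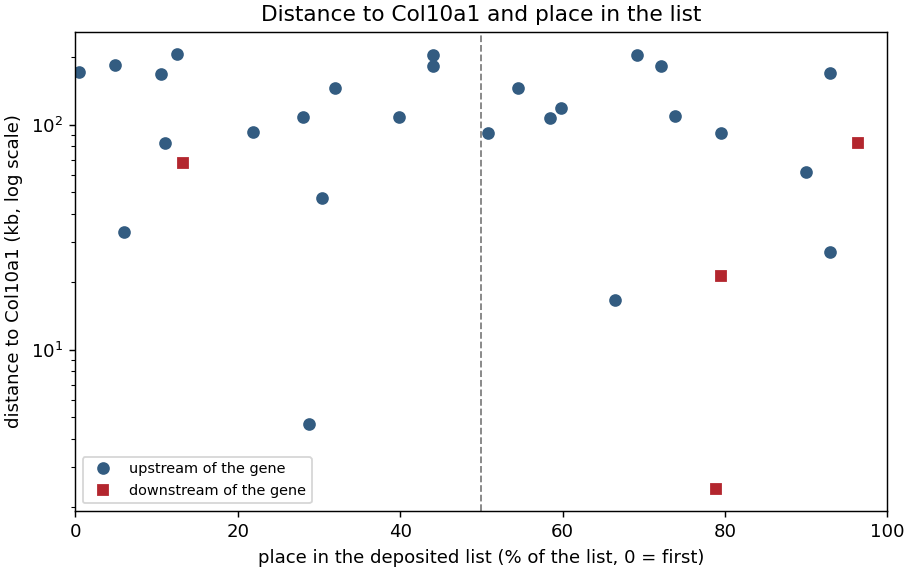
Place of each of the 30 peaks in the deposited list (x axis, percent of the list, 0 is the first row) against its distance to Col10a1 (y axis, kb, log scale), with circles for upstream and squares for downstream peaks. The dashed line marks 50% of the list, with 15 peaks on either side; the nearest upstream peak, at 4.7 kb, stands at 28.8% and the nearest downstream peak, at 2.4 kb, at 78.9%.

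The window as a whole held more peaks than its chromosome on average. Its density was 66.7 per Mb (exact Poisson 95% interval 45.0 to 95.2), against 43.5 per Mb over chromosome 10, a ratio of 1.53 (1.03 to 2.19). Autosomal densities ran from 33.3 to 57.7 per Mb. Among 5348 autosomal tiles of 450 kb, though, 24.4% held 30 peaks or more. The median tile held 12 peaks, the central 50% of tiles held 2 to 29, and the fullest held 155. The window around Col10a1 thus lay close to the upper quartile of tiles and far from the densest.

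**Figure D3:**
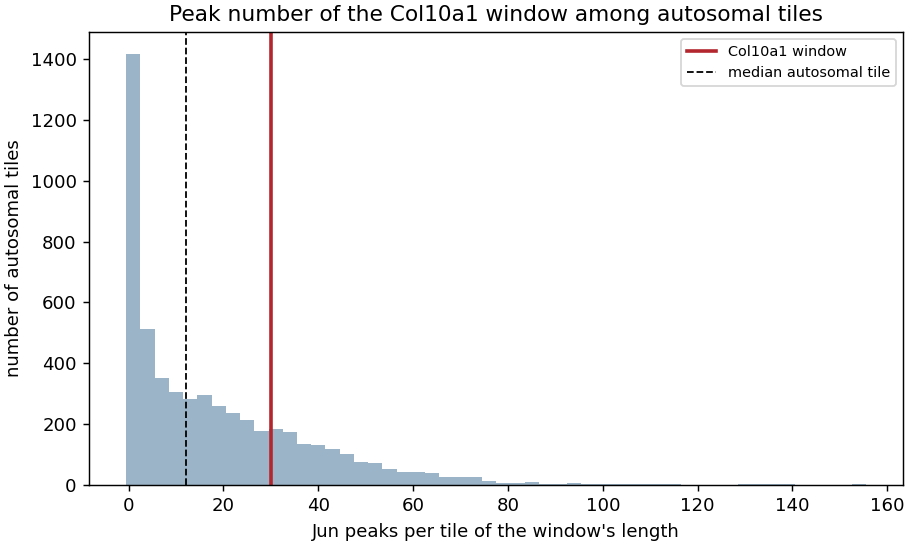
Number of Jun peaks (x axis) in 5348 autosomal tiles of 450 kb (y axis, number of tiles). The red line is the Col10a1 window with 30 peaks and the dashed line the median tile with 12; 24.4% of the tiles held at least as many peaks as the window.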

How the data were processed

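The list deposited by the authors holds, per Jun peak, a chromosome and 2 positions in bp (other values), on mm9, per the submitters' processing notes. No source used here states the aligner, the peak caller or the use of the input library. The list's name carries an FDR mark that no label explains, so no threshold is given. The list carries no sample name and was assigned to the only Jun library of the series. Positions are printed counted from 1. Distances run from a peak's midpoint to the nearer of the gene ends, which are approximate mm9 positions. Densities of chromosomes per Mb use the span between a chromosome's first and last peak. Those of the window and its parts use their full lengths. Intervals are exact Poisson or exact binomial and cover counting error only. No test between groups was possible with 1 list. The window, the rule for named peaks and the alternatives were chosen with earlier results of these data known. The rule named the peaks within 50 kb, the 3 widest, narrowest, earliest and latest, and the ends of groups of 3 or more. Counting, chaining and merging were tested on simulated data. Python 3.11.15, pandas 2.3.3, numpy 2.4.6 and scipy 1.17.1 were used. Promoter sequence came from RefSeq (GRCm38.p6).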

Additional observations from a re-analysis of the deposited data

How the results depend on the processing

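No paired analysis was possible because there was 1 list and no replicate. The ratio of the window's density to that of chromosome 10 stayed between 1.47 and 1.64 and the median width between 122 and 126 bp under all alternatives run for them. The number of peaks was 21 with peaks within 1000 bp merged, 14 within 100 kb of the gene, and 15 in either 50% of the list, which hold fewer peaks by construction. Within 50 kb of the gene there were 3 peaks from the first 50% of rows and 4 from the last 50%, and there were 3 within 20 kb and 14 within 100 kb. The distance of the nearest peak depends on the approximate gene ends: it was 2.4 kb, became 0 kb, a peak inside the gene, with the gene moved by 5 kb to either side, and was 4.67 kb in the first 50% of the list. The number of groups was 5 with chaining at 20 kb, where 0 peaks on either side stood alone, and 9 in the first 50% of the list. It was 18 with chaining at 5 kb, where 8 peaks upstream and 4 downstream stood alone. The median place was 21.9% for the first 50% of rows and 73.8% for the last 50%, which differ by construction. With peaks within 1000 bp merged it was 30.4%, moved forward by construction because each region takes its earliest place. Within 100 kb of the gene the median place was 58.6%. The last 50% was chosen after seeing the data, as was moving the tiles by 50% of their length, which gave 24.6% of tiles. At an unknown read depth, sites may be bound and yet not listed.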

Other observations

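Among the 30 peaks around Col10a1, a pair shared neighbouring rows of the list although it lay about 22 kb apart on the chromosome. The peaks of 148 bp (33928534 to 33928681) and 73 bp (33906361 to 33906433) stood at places 43733 and 43734. Another pair, the 98 bp peak 27.2 kb upstream and the 312 bp peak 169 kb upstream, stood at places 92124 and 92126. These rows are close but not neighbours, and how often such pairs occur in the list was not counted. Across the list, 935 of 99161 pairs of neighbouring rows (0.943%) lay on the same chromosome within 50 kb of each other.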
